A study of Mus musculus with 6 samples.

Results

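The receptor tyrosine kinases Met, Egfr, Erbb2, Erbb3 and Ros1, together with Hgf, the secreted ligand of Met, were measured in whole kidneys of mouse embryos at day 12.5. Members were all probe sets whose platform annotation gives exactly 1 gene symbol and that symbol is 1 of these 6, which found 16 of the 45101 probe sets on the array: 7 for Egfr, 3 for Hgf, 2 each for Met and Erbb3, and 1 each for Erbb2 and Ros1. Beta-catenin conditional knockout kidneys (Hoxb7-Cre,Gfp with a beta-catenin allele whose loxP sites lie around exons 2 to 6, n = 3 arrays) were compared with kidneys of normal mice (n = 3 arrays). The Hoxb7 promoter drives Cre in the ureteric bud, the branching epithelium that later forms the collecting ducts, so the mesenchyme around it is not targeted. The labels do not say whether the normal mice carried the transgene or the loxP allele, nor how many animals went into each vial. The sample titles call the samples of each group biological replicates 1 to 3. With the number of animals per sample not given, the p-values cover only the variation among these 6 samples, which may be technical in part. The description field of the knockout samples repeats the wording for normal kidneys, and groups and directions here follow the titles.

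HGF is made by mesenchymal cells as an inactive precursor, is cut into its active form by serine proteases, and binds Met on neighbouring epithelium, where it promotes cell movement, survival and branching. The ErbB receptors work in pairs: Egfr binds EGF, TGF-alpha, HB-EGF and related ligands, Erbb3 binds neuregulins but has little kinase activity of its own, and Erbb2 binds no known soluble ligand and serves as the partner of the others. Ros1 is a receptor of epithelial cells that, in the mouse, is needed for the epididymis to mature, and NELL2 has been described as its ligand there. All of them feed the Ras-MAPK and PI3K-Akt cascades, as does Ret, the receptor that drives ureteric bud branching.

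None of the members differed between knockout and normal kidneys beyond the spread of the arrays. Of the 16 probe sets, 13 passed the filter on dim signals, a mean log2 signal above the 40th percentile, which corresponds to a signal of 14.7. These 13 cover all 6 genes. By limma with Benjamini-Hochberg adjustment over the 27022 probe sets tested, 0 of the 13 passed an adjusted p of 0.05, where 0.581% of all tested probe sets did. At an unadjusted p under 0.05 there were also 0 of 13, beside 11.5% of all tested probe sets, and 1 of 13, Ros1, when knockout replicate 2 was left out. The knockout and normal arrays overlapped for all 16 probe sets, while they did not overlap for 17.9% of the tested ones. In a fit without the filter 0 of the 16 passed, beside 0.333% of all probe sets, and 0 had an unadjusted limma p under 0.05, beside 9.06%; the groups did not overlap for 14.7% of probe sets then. The median log2 difference of the 13 was 0.08, beside -0.01 over all tested probe sets, with 8 positive and 5 negative differences from -0.19 to 0.70.

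**Figure D1:**
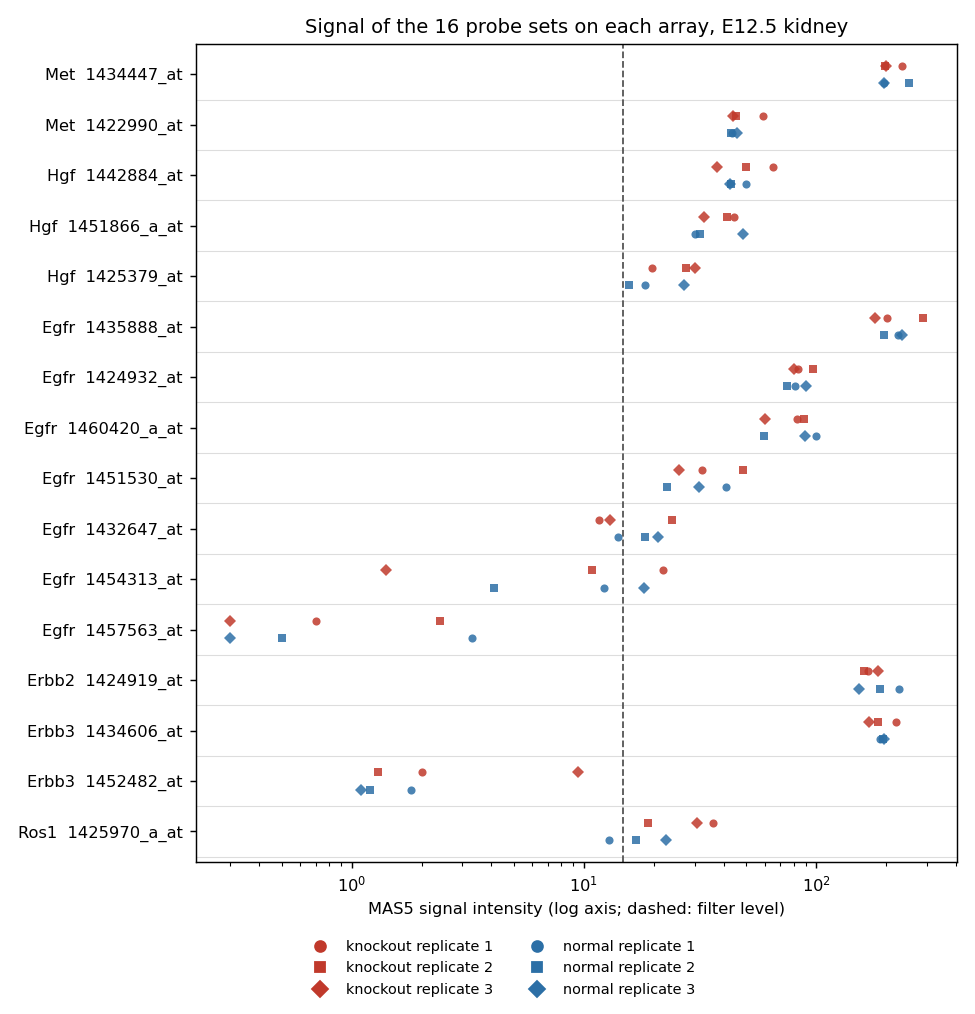
Signal of the 16 probe sets on each array (log axis), one row per probe set, with the 3 knockout arrays in red above the 3 normal arrays in blue and the filter level of 14.7 as a dashed line. The groups overlap in every row, and 1 probe set of Erbb3 and 2 of Egfr lie mostly left of the filter level.

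Targeting could not be checked on this array by the level of Ctnnb1, the beta-catenin gene. Its brightest probe set read 6777, 6779 and 6586 in knockout replicates 1 to 3, against 5707, 6760 and 6549 in normal replicates 1 to 3, and where its probes lie relative to the deleted exons is not analysed here. Ureteric epithelium markers were present, 17 of 19 above the filter, with summed signals from 4104 to 6085 in knockout and from 4727 to 5627 in normal arrays, although Hoxb7 itself was below it. Nephron progenitor markers were above the filter for 11 of 12. Of the renal vesicle markers, which label the first nephron epithelium, all 9 had differences below 0 with a median of -0.43. By limma 0 of the 9 passed and 6, or 66.7%, had an unadjusted p under 0.05, beside 11.7% of all genes, Wnt4 (-0.95) and Hey1 (-0.78) among them. The summed signal of these markers ran from 1362 to 1763 in knockout and from 2315 to 2434 in normal arrays. In these whole kidneys, fewer cells of a type and less RNA per cell cannot be told apart.

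Met, the HGF receptor, kept close levels in both groups. Its brighter probe set, 1434447_at, read 233.7, 198.1 and 200.2 in knockout replicates 1 to 3, against 195.8, 250.5 and 196.6 in normal replicates 1 to 3. The highest value belonged to normal replicate 2 and the next to knockout replicate 1, while the other 4 arrays lay between 195.8 and 200.2. The means were 211 ± 20.0 in knockout and 214 ± 31.4 in normal kidneys (SD, n = 3 each), a log2 difference of -0.02 (SE 0.14; limma adjusted p = 0.970). The 95% interval of the knockout to normal ratio ran from 0.794 to 1.23.

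The dimmer Met probe set, 1422990_at, read 59.2, 45.3 and 43.8 in knockout replicates 1 to 3, against 43.6, 43.0 and 45.6 in normal replicates 1 to 3. Knockout replicate 1 stood above the other 5 arrays, which were nearly level. Its log2 difference was 0.15 (SE 0.21; limma adjusted p = 0.816). Knockout replicate 1 was thus among the 2 highest arrays in both Met probe sets, whereas normal replicate 2, the highest in the brighter one, was the lowest in the dimmer one.

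Hgf, the ligand, had 3 probe sets, all dim and all with a difference above 0 that was smaller than its error or close to it. The brightest, 1442884_at, read 65.0, 49.8 and 37.4 in knockout replicates 1 to 3, against 50, 43.2 and 42.6 in normal replicates 1 to 3. The knockout arrays held both the highest and the lowest value, and the log2 difference was 0.13 (SE 0.25; limma adjusted p = 0.868). Without knockout replicate 1 it was -0.07.

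Another Hgf probe set, 1451866_a_at, whose suffix marks a design that recognises several transcripts of 1 gene, read 44.5, 41.3 and 33.0 in knockout arrays, against 30.0, 31.5 and 48.4 in normal arrays. Normal replicate 3 was the highest of all 6 and the other 2 normal arrays were the lowest, with a log2 difference of 0.14 (SE 0.27; limma adjusted p = 0.877). The dimmest, 1425379_at, read 19.7, 27.6 and 30.0 in knockout arrays, against 18.3, 15.6 and 26.9 in normal arrays, close to the filter level. Its log2 difference of 0.36 (SE 0.34; limma adjusted p = 0.704) had a 95% interval from -0.41 to 1.13. The 3 probe sets did not order the arrays alike: knockout replicate 3 was the lowest knockout array in 2 of them and the highest in the other.

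Egfr, the EGF receptor, was measured by 7 probe sets, 5 of them above the filter. The brightest, 1435888_at, read 201.8, 288.0 and 178.6 in knockout replicates 1 to 3, against 224.9, 196.3 and 233.2 in normal replicates 1 to 3. Knockout arrays again held the highest and the lowest value. The means were 223 ± 57.6 in knockout and 218 ± 19.4 in normal kidneys (SD, n = 3 each), a log2 difference of 0.00 (SE 0.18; limma adjusted p = 0.996) with a 95% interval of the ratio from 0.758 to 1.33.

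A pair of Egfr probe sets rests on the same sequence record, and both had knockout replicate 2 as the highest and normal replicate 2 as the lowest array. The brighter of the pair, 1424932_at, read 83.7, 97.4 and 80.0 in knockout arrays, against 81.2, 75.1 and 90.8 in normal arrays (log2 difference 0.08, SE 0.17). The dimmer, 1451530_at, read 32.3, 48.5 and 25.8 in knockout arrays, against 40.8, 22.9 and 31.2 in normal arrays (log2 difference 0.16, SE 0.33). The a_at design for several transcripts, 1460420_a_at, had the opposite sign, with 82.4, 88.4 and 60.4 in knockout arrays, against 99.4, 59.6 and 89.2 in normal arrays (log2 difference -0.09, SE 0.24).

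Another pair of Egfr probe sets shares a record too, and neither member of it was well measured. The one above the filter, 1432647_at, read 11.6, 24.0 and 13 in knockout arrays, against 14, 18.3 and 20.8 in normal arrays, and only 3 of the 6 arrays exceeded the filter level. Its log2 difference of -0.19 (SE 0.41) had a 95% interval from -1.11 to 0.73. The partner below the filter, 1454313_at, read 21.8, 10.8 and 1.4 in knockout arrays, against 12.2, 4.1 and 18.2 in normal arrays. The highest of these values was 15.6 times the lowest, with no separation of the groups. The remaining Egfr probe set, 1457563_at, lay between 0.3 and 3.3 on every array, near the bottom of the scale.

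The Egfr probe sets varied between the arrays of a group in a common direction. Knockout replicate 2 was the highest knockout array in 6 of 7 and knockout replicate 3 the lowest in 6 of 7, and normal replicate 2 was the lowest normal array in 5 of 7. These counts include 1454313_at and 1457563_at, which lay below the filter, and all 7 are readings of 1 gene on the same arrays. The same shares over all probe sets are not given here. As log2 distance from the normal mean, the 5 probe sets above the filter averaged -0.11, 0.38 and -0.28 in knockout replicates 1 to 3, against 0.08, -0.22 and 0.13 in normal replicates 1 to 3. So the range inside the knockout group was wider than any Egfr group difference above the filter. Without knockout replicate 2 the log2 difference of the brightest probe set was -0.20 and that of 1451530_at was -0.09. Knockout replicate 3 and normal replicate 2 also had the lowest whole-array median signals, 25.1 and 24.9, against 30.5 to 32.1 on the other arrays. Of all 13 probe sets above the filter, 2 exceeded the normal mean in knockout replicate 3 and 4 in normal replicate 2, against 5 to 10 on the other arrays. The part of array level in the Egfr values was not tested.

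**Figure D2:**
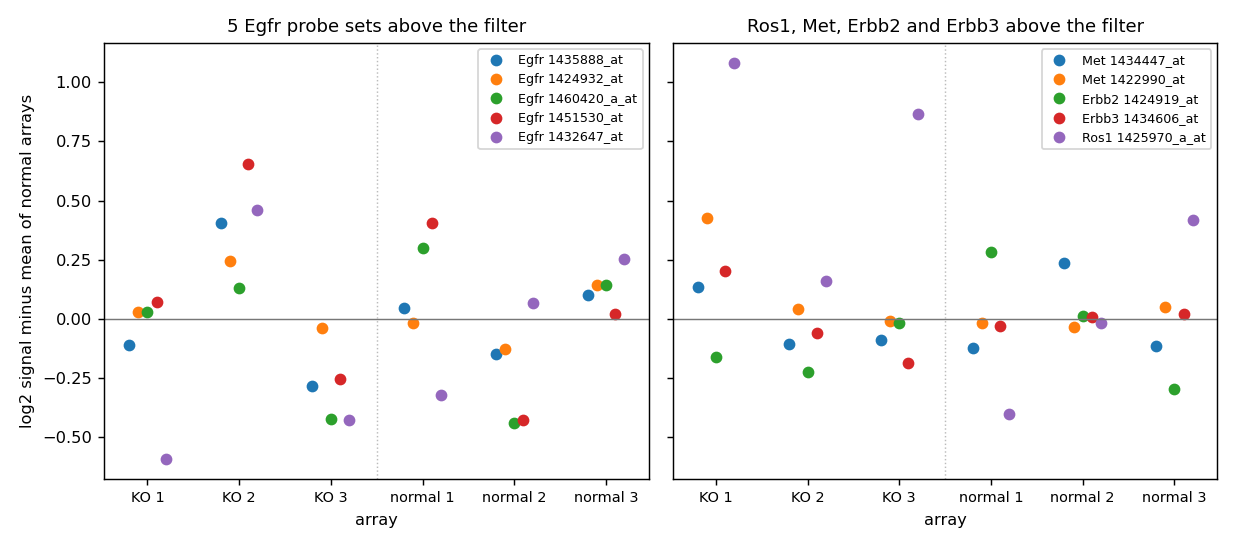
Log2 signal of each probe set above the filter minus its mean over the normal arrays, by array, for Egfr (left) and for Met, Erbb2, Erbb3 and Ros1 (right), with knockout (KO) arrays left of the dotted line and normal arrays right of it. All 5 Egfr points lie above 0 in knockout replicate 2 and below 0 in knockout replicate 3, and Ros1 lies highest in knockout replicates 1 and 3.

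Of the 11 cell marker lists, those of skeletal muscle, macrophages and renal stroma were also highest of all 6 arrays in knockout replicate 2 by mean log2 distance. The other lists were not, though those of endothelium (-0.01) and adrenal cortex (0.08) were highest there among the knockout arrays. In both of those lists a normal array was higher. The skeletal muscle list, 9 of 10 above the filter, averaged 1.37, 3.27 and 0.05 in knockout replicates 1 to 3 as log2 distance from the normal mean, against -0.21, 0.05 and 0.16 in normal replicates 1 to 3. Its summed signal ranged from 828.5 to 6722 in knockout and from 648.3 to 698.3 in normal arrays. The macrophage list, 9 of 10 above the filter, averaged 0.45, 0.81 and 0.42 in knockout replicates 1 to 3, against 0.54, -0.65 and 0.11 in normal replicates 1 to 3, with summed signals from 922.6 to 1279 in knockout and from 445.8 to 970.1 in normal arrays. The renal stroma list, 13 of 13 above the filter, averaged -0.13, 0.24 and -0.11 in knockout replicates 1 to 3, against 0.19, -0.19 and 0.00 in normal replicates 1 to 3. By their means, the macrophage and stroma lists were both highest in knockout replicate 2 and lowest in normal replicate 2, as the Egfr pair on 1 shared record was. The brightest Egfr probe set was lowest in knockout replicate 3 instead (178.6), where the macrophage list was at 0.42. The stroma list had summed signals from 21625 to 26142 in knockout and from 21212 to 26547 in normal arrays. By this measure it was highest in normal replicate 1. No measured marker of these 3 lists read 0 on any array, and the part of these cells in the Egfr values was not tested.

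Erbb2, the ligand-less partner receptor, had 1 probe set, 1424919_at. It read 167.4, 160.5 and 185.1 in knockout replicates 1 to 3, against 228.0, 189.0 and 152.4 in normal replicates 1 to 3. All 3 knockout values lay inside the range of the normal arrays, which held both the highest and the lowest. The means were 171 ± 12.7 in knockout and 190 ± 37.8 in normal kidneys (SD, n = 3 each), a log2 difference of -0.13 (SE 0.16; limma adjusted p = 0.780) with a 95% interval of the ratio from 0.708 to 1.17. The difference rested on normal replicate 1, without which it was 0.01.

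Erbb3, the neuregulin receptor, was the most tightly bounded member. Its brighter probe set, 1434606_at, read 221.6, 184.7 and 169.1 in knockout replicates 1 to 3, against 188.4, 193.2 and 195.4 in normal replicates 1 to 3. The normal arrays were nearly equal, and the knockout arrays lay on both sides of them. The means were 192 ± 27.0 in knockout and 192 ± 3.58 in normal kidneys (SD, n = 3 each), a log2 difference of -0.01 (SE 0.13; limma adjusted p = 0.979), and the 95% interval of the ratio ran from 0.807 to 1.22. The other Erbb3 probe set, 1452482_at, read 2.0, 1.3 and 9.4 in knockout arrays, against 1.8, 1.2 and 1.1 in normal arrays, all below the filter level. Only knockout replicate 3 stood apart there, and the fit without a filter gave a log2 difference of 1.12 (SE 0.95; limma adjusted p = 0.758).

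Erbb3 is also a receptor of Schwann and neural crest cells. Of the list of markers for those cells, 5 of 11 lay above the filter, Sox10 among them, while Foxd3, S100b, Cdh19 and Dhh lay below it. The 5 had summed signals from 658.3 to 689.4 in knockout and from 591.8 to 864.6 in normal arrays. The mean log2 distance of these markers from the normal mean was 0.10, 0.03 and -0.20 in knockout replicates 1 to 3, against 0.23, -0.22 and -0.01 in normal replicates 1 to 3. The lowest single signal among the 5 was 23.7. Among the knockout arrays the list by its mean log2 distance and the brighter Erbb3 probe set had the same order. By summed signal the list was highest in knockout replicate 2 instead (689.4). Of its markers, Ednrb and Fabp7 had the order of Erbb3, while Sox10, Gfra3 and Ngfr did not. The normal arrays varied in the list and hardly in Erbb3, and the part of these cells was not tested.

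Ros1 had the largest difference among the 13 probe sets above the filter and still did not pass. Its probe set, 1425970_a_at, read 35.8, 18.9 and 30.8 in knockout replicates 1 to 3, against 12.8, 16.7 and 22.6 in normal replicates 1 to 3. Knockout replicates 1 and 3 lay above all normal arrays, and knockout replicate 2 lay below normal replicate 3. The means were 28.5 ± 8.68 in knockout and 17.4 ± 4.93 in normal kidneys (SD, n = 3 each). The log2 difference was 0.70 (SE 0.37; unadjusted p = 0.0924, limma adjusted p = 0.507), a ratio of 1.63 with a 95% interval from 0.906 to 2.92. Signals this close to the filter level of 14.7 are imprecise. The residual SD of Ros1 was 0.45 on the log2 scale, beside a median of 0.22 over all tested probe sets. With log2(signal + 16) the difference was 0.41, but that offset shrinks the differences of dim signals by construction.

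The Ros1 value depended on single arrays in size but not in sign. It ranged from 0.50 without normal replicate 1 to 0.97 without knockout replicate 2, with limma adjusted p from 0.400 to 0.742 over the 6 fits that left out 1 array. Without knockout replicate 2 its unadjusted limma p was 0.0364 and its adjusted p 0.648. Among the knockout arrays, 4 of the 11 cell marker lists were lowest in replicate 2, as Ros1 was. The log2 distance of the ureteric epithelium list from the normal mean was 0.05, -0.28 and -0.04 in knockout replicates 1 to 3, against 0.10, 0.00 and -0.10 in normal replicates 1 to 3. The nephron progenitor list was at -0.10, -0.22 and 0.05 in knockout arrays, against -0.01, 0.04 and -0.03 in normal arrays, and the renal vesicle list at -0.35, -0.67 and -0.47, against -0.01, 0.05 and -0.04. The erythroid list, 7 of 10 above the filter with summed signals from 15791 to 22159 in knockout and from 12614 to 18165 in normal arrays, was at 0.69, 0.29 and 1.14 in knockout arrays, against -0.35, 0.58 and -0.23 in normal arrays. All 7 erythroid markers had differences above 0, as Ros1 had, and so had 8 of 9 macrophage and 8 of 9 skeletal muscle markers. The median differences of the ureteric epithelium, nephron progenitor and renal vesicle lists were below 0, at -0.11, -0.23 and -0.43. Above the filter, the markers of these 3 lists and of the erythroid list had no signal of 0 on any array. The part of these cells in the Ros1 values was not tested.

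What the design could have shown differed between the members. With the errors as fitted, a probe set would have passed at a fold change of 1.68 for the brighter Erbb3 probe set, 1.73 for the brighter Met probe set, 1.90 for Erbb2 and 2.03 for the brightest Egfr probe set. For the brightest Hgf probe set it was 2.70 and for Ros1 4.41. Of the 13 probe sets, 10 had a 95% interval entirely within 1 log2 unit of 0, so a 2-fold change in either direction lay outside their intervals. The other 3, the dimmest Hgf, the dimmest Egfr above the filter and Ros1, were not bounded that closely. The residual SD of the 13 had a median of 0.30 on the log2 scale, beside 0.22 over all tested probe sets.

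**Figure D3:**
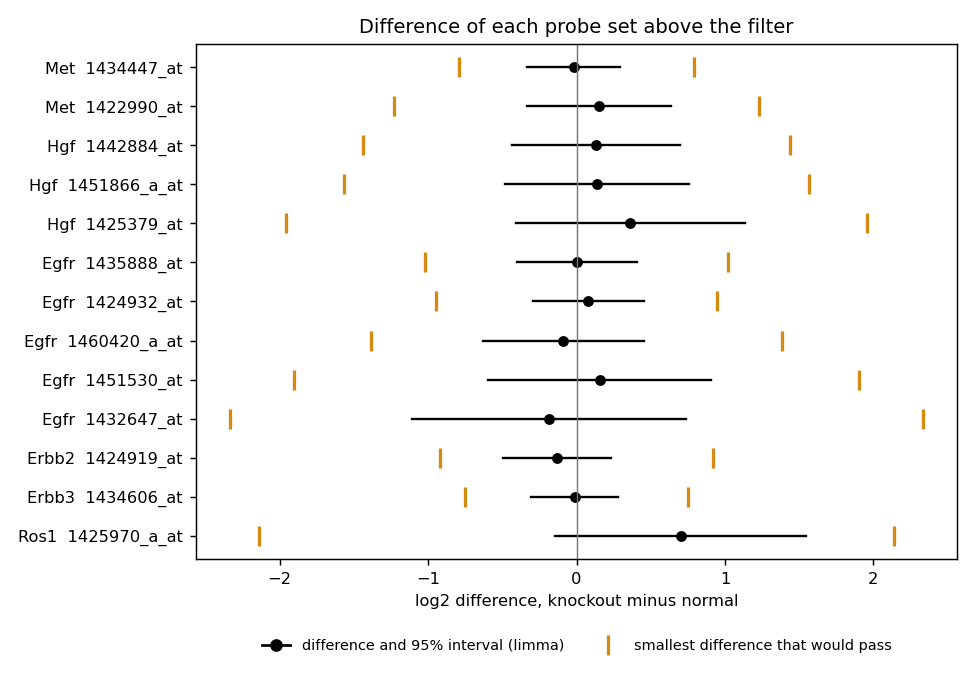
Log2 difference, knockout minus normal, of the 13 probe sets above the filter with its 95% interval from limma (black), and the smallest difference that would have passed with the error as fitted (orange ticks). Every interval includes 0, and Ros1 at 0.70 is the farthest from it.

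The rest of these pathways was described through 9 lists of 118 distinct genes, from ligands to output genes, of which 111 were on the array and 97 lay above the filter. By limma with Benjamini-Hochberg adjustment 0 of the 97 passed, each gene taken by its brightest probe set, where 0.602% of all 12464 genes did. At an unadjusted p under 0.05 there were 11, or 11.3%, beside 11.7% of all genes, 3 of them higher in the knockout, as were 6.14% of all genes, and 8 lower, as were 5.57%. The groups did not overlap for 20 of them, or 20.6%, beside 19.3% of all genes, 10 with the knockout above, as in 10.2% of all genes, and 10 with it below, as in 9.1%. The median log2 difference was 0.00, as over all genes. These shares stand close to those of the whole array. The 2 genes with the smallest p of each list are named below, 16 in all, and 12 of them had further probe sets above the filter, 8 of 20 with the opposite sign to the brightest.

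Of the ErbB ligands, 5 of the 10 on the array were above the filter, with a median log2 difference of 0.37 and 0 past the threshold. That median is the value of Egf (SE 0.40), whose signals of 13.3 to 30.6 lay near the filter level. Hbegf, a membrane-anchored ligand of Egfr, had the smallest p of the list. Its brightest probe set read 79.1, 106.8 and 74.6 in knockout replicates 1 to 3, against 69.3, 38.7 and 70.6 in normal replicates 1 to 3. Knockout arrays lay above all normal ones, by a small margin outside normal replicate 2, at a log2 difference of 0.58 (SE 0.27; limma adjusted p = 0.454). Its other probe set did the same, with 53.8, 49.5 and 43.7 in knockout arrays, against 30.9, 16.8 and 38.8 in normal arrays (log2 difference 0.84, SE 0.33; limma adjusted p = 0.398).

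Nrg2, a neuregulin, stood at 0.52 (SE 0.26; limma adjusted p = 0.481) with overlapping groups. Tgfa, which encodes TGF-alpha, stood at -0.02 (SE 0.16) and Btc at -0.27 (SE 0.32). Nrg1, Nrg3, Nrg4, Ereg and Epgn lay below the filter. So did Erbb4, the remaining ErbB receptor, which read at most 2.7, and Mst1r and Mst1, a Met-related receptor and its ligand.

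Around HGF and Met, the proteases that activate the precursor and their inhibitors gave 0 calls among 6 genes above the filter, with a median log2 difference of -0.07. Spint1, a membrane-bound inhibitor of the HGF activator, read 97.3, 67.9 and 76.2 in knockout arrays, against 123.8, 109.4 and 90.3 in normal arrays. The groups overlapped through knockout replicate 1 and normal replicate 3 alone, and the log2 difference was -0.43 (SE 0.19; limma adjusted p = 0.446). Plat, the tissue plasminogen activator, stood at 0.19 (SE 0.09; limma adjusted p = 0.461).

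The Met partner list, with 9 genes above the filter and a median of -0.13, was led by Plxnb1, a semaphorin receptor that associates with Met. Plxnb1 read 120.5, 115.8 and 133.7 in knockout arrays, against 193.1, 179.7 and 148.6 in normal arrays. All knockout values lay below all normal ones, at a log2 difference of -0.49 (SE 0.14; limma adjusted p = 0.271). Its other probe set, at -0.22 (SE 0.18), overlapped. Cd44, a hyaluronan receptor that can act as a co-receptor of Met, stood at -0.50 (SE 0.25) by the brighter and 0.05 (SE 0.24) by the dimmer probe set.

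Ligands and partners of Ros1, 5 genes with a median of 0.02, had 0 calls and no gene at an unadjusted p under 0.05 by limma. Vav3 stood at 0.19 (SE 0.17; limma adjusted p = 0.684). Gopc, a Golgi protein known as a fusion partner of Ros1 in human tumours, stood at -0.12 (SE 0.13; limma adjusted p = 0.750) by its brightest probe set and at -0.18 (SE 0.17) and 0.32 (SE 0.22) by the others. Nell2, the described ligand, was at -0.05 (SE 0.58), an error too wide to bound its change.

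Ligand shedding genes had a median of 0.08 over 9 genes. Mmp14, a membrane-bound metalloprotease, read 1061, 1057 and 1189 in knockout arrays, against 1054, 766.8 and 860.5 in normal arrays. The groups did not overlap, though knockout replicate 2 and normal replicate 1 were nearly equal, at a log2 difference of 0.31 (SE 0.12; limma adjusted p = 0.389). Its other probe sets stood at 0.16 (SE 0.16) and -0.18 (SE 0.24). Rhbdf2, a rhomboid-like protein that helps bring the sheddase ADAM17 to the cell surface, stood at -0.80 (SE 0.38; limma adjusted p = 0.458) with overlapping groups.

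Among adaptors and cytoplasmic effectors, 26 genes with a median of -0.03, the smallest p belonged to the kinase Akt1 at -0.32 (SE 0.11; limma adjusted p = 0.358) and the docking protein Gab2 at 0.35 (SE 0.13; limma adjusted p = 0.378). The core adaptor Grb2 stood at -0.03 (SE 0.10), the phosphatase Ptpn11 at -0.01 (SE 0.09) and Gab1, the main docking protein of Met, at 0.14 (SE 0.10). MAPK output genes, 16 with a median of -0.08, had 7 differences above 0 and 9 below. At an unadjusted limma p under 0.05 there were 3, or 18.8%, beside 11.7% of all genes. All 3, Ccnd1, Etv4 and Etv5 (-0.29), were lower, as were 5.57% of all genes. The smallest p were those of Ccnd1, which encodes cyclin D1, at -0.30 (SE 0.09; limma adjusted p = 0.311), and the ETS factor Etv4 at -0.66 (SE 0.24; limma adjusted p = 0.376). Further probe sets stood at -0.34 and 0.11 for Ccnd1, at 0.16 for Etv4, at -0.18 and -0.12 for Akt1 and at 0.34 and -0.03 for Gab2. Dusp6, an ERK phosphatase that follows MAPK activity, stood at 0.06 (SE 0.10).

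The negative regulators, 21 genes with a median of 0.03, held the smallest p of the 97. Cbl, the ubiquitin ligase that sends activated Met and Egfr to degradation, read 408.1, 384.4 and 339.5 in knockout arrays, against 479.5, 476.1 and 507.2 in normal arrays. The knockout arrays were all lower, at a log2 difference of -0.37 (SE 0.10; limma adjusted p = 0.215), but its 2 other probe sets stood at 0.18 (SE 0.28) and 0.37 (SE 0.64). Errfi1, a feedback inhibitor that binds the Egfr kinase, stood at 0.19 (SE 0.10) and Lrig1, a membrane inhibitor of ErbB receptors, at -0.08 (SE 0.19).

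Cblb, a relative of Cbl, was lower in all 3 of its probe sets. The brightest read 340.7, 352.5 and 458.0 in knockout arrays, against 533.0, 562.9 and 447.0 in normal arrays, so the groups overlapped through knockout replicate 3 and normal replicate 3 (log2 difference -0.43, SE 0.14; limma adjusted p = 0.319). The other probe sets read 93.7, 103.7 and 115.0 in knockout arrays, against 138.5, 129.0 and 147.1 in normal arrays (-0.41, SE 0.14), and 190.1, 102.3 and 76.7 in knockout arrays, against 224.9, 211.2 and 305.7 in normal arrays (-1.09, SE 0.30). In both of these the groups did not overlap. With the mean of all kept probe sets of a gene, Cblb passed at -0.64 (SE 0.11; limma adjusted p = 0.0389), as did 0.522% of all genes in that fit, while it did not pass by its brightest probe set.

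**Figure D4:**
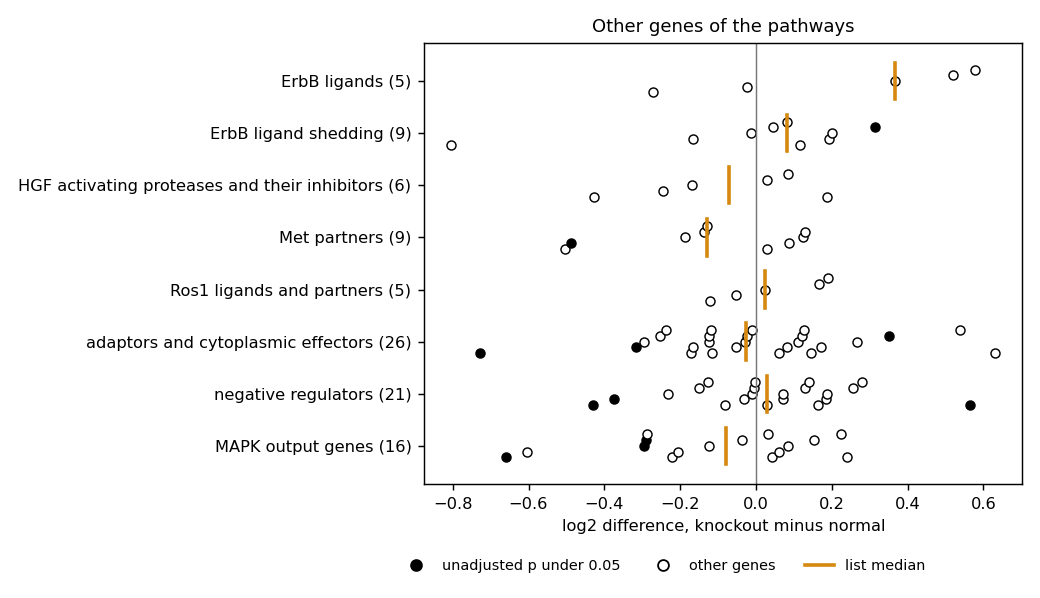
Log2 difference, knockout minus normal, of the other pathway genes above the filter by list, 1 point per gene by its brightest probe set, with the number of genes in brackets, filled points for an unadjusted limma p under 0.05 and orange lines for list medians. The medians lie between -0.13 and 0.37, and the ErbB ligands, with 5 genes, have the highest.

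Genes whose signals most resembled each member over the 6 arrays were found by the root mean square distance between centred log2 signals, among genes at least as variable as the member. They were picked for likeness on these same arrays, from 852 to 9255 candidates per member. A shared order of arrays therefore follows from the choice. For Met, by its brightest probe set, the nearest was Lhpp, a phosphatase, at a distance of 0.02, with 138.2, 117.1 and 122.1 in knockout arrays, against 114.6, 150.7 and 117.8 in normal arrays. Like Met, it was highest in normal replicate 2 and next highest in knockout replicate 1. Cfap298 followed at 0.03. The nearest to Erbb2 were Cercam and Eml3 at 0.03 and 0.04, both highest in normal replicate 1 and lowest in normal replicate 3, as Erbb2 was.

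For Egfr the nearest genes were the nuclear receptor Rora and the nuclease gene Dnase1l1, at 0.07 and 0.08. Rora read 36.3, 59.5 and 33.5 in knockout arrays, against 43.2, 39.8 and 45.5 in normal arrays, with its peak in knockout replicate 2. Erbb3 lay nearest to Slc25a53 and Gnb1l at 0.05 each, and Hgf to Cpne7 and Cd200 at 0.11 and 0.12. The matches of Ros1 lay at larger distances, Dcx at 0.21 and Nxpe4 at 0.23. Ros1 also varied most among the members (SD 0.56 over the 6 arrays) and had the fewest candidates, 852. Nxpe4 read 152.2, 96.2 and 119.0 in knockout arrays, against 46.0, 65.0 and 67.7 in normal arrays, so its groups did not overlap where those of Ros1 did.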

How the data were processed

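One-colour Affymetrix arrays measured biotin-labelled total RNA of E12.5 kidneys, 3 per group. Each probe set has a deposited intensity on a linear scale. The submitters' processing notes name MAS5, without a version or parameters. The 2% trimmed mean of the intensity was 150.0 on every array, so no scaling was added. The medians still differed, from 24.9 to 32.1, and median centring was run as an alternative. Before log2, the 15 zeros were replaced by 1.7 (10th percentile of values above 0), which makes differences between low signals uncertain. Excluding 64 controls left 45037 probe sets, of which 27022 passed the 40th percentile filter.

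The knockout minus normal difference was fitted in R 4.3.3 using limma 3.58.1 (lmFit, eBayes with intensity trend, Benjamini-Hochberg, threshold 0.05), and the fit was tested on simulated data. Of the non-control probe sets, 34945 had 1 symbol, updated through gene identifiers in a GRCm38.p6 gene table, 932 had several and 9160 had none here. Members and lists were chosen with earlier results of these data known. The named pathway genes are the 2 with the smallest p in each list; other list genes mentioned were picked with their values known. The number of arrays limits precision. Alternatives changed the filter, scaling, log offset, variance model, array weights, replicate block, probe set summary and the arrays included.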

Additional observations from a re-analysis of the deposited data

How the results depend on the processing

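No member passed under any alternative run: the count of members called was 0 in all 15, and the smallest limma adjusted p of a member was 0.400 (Ros1 without normal replicate 3). The count of probe sets called on the whole array was 157, 434 after median centring and 41 without the intensity trend, and ranged from 47 to 149 when 1 array was left out. The count of pathway genes called was 0, and 1 (Cblb) with the mean of all kept probe sets. With the replicate block 109 probe sets and 0 members were called. The replicate numbers showed no pairing of the arrays. Same-numbered deviations correlated at 0.08, -0.11 and -0.20, and only 1 of the 6 arrays, normal replicate 1, correlated best with its own number. These deviations were centred within groups of 3 arrays, so they cannot exclude a pairing. Of 233 member values under alternatives, 206 kept their sign and 27 changed it, none of them past the threshold in either fit, and the cause was not tested.

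The sign changes, as log2 differences, were these. Met 1434447_at stood at 0.01 with array weights, 0.067 as the mean of its probe sets and from -0.096 to 0.098 when 1 array was left out, above 0 without knockout replicates 2 (0.023) and 3 (0.016) and normal replicate 2. Erbb3 1434606_at stood at 0.002 after quantile normalization. The mean of the Erbb3 probe sets, which includes the one below the filter, stood at 0.554. Erbb3 1434606_at ranged from -0.122 to 0.073 with 1 array left out, above 0 without knockout replicates 2 (0.009) and 3. With 1 array left out, Erbb2 ranged from -0.282 to 0.008, the highest without normal replicate 1, and Hgf 1442884_at from -0.065, without knockout replicate 1, to 0.334. Egfr 1435888_at stood at -0.011 with array weights, and the mean of all Egfr probe sets, also those below the filter, at -0.073. Egfr 1435888_at ranged from -0.196, without knockout replicate 2, to 0.148 (-0.07 without normal replicate 2). With 1 array left out, Egfr 1451530_at ranged from -0.092 to 0.363, 1424932_at from -0.005 to 0.151, 1460420_a_at from -0.308 to 0.078 and 1432647_at from -0.508 to 0.016. The lowest values of 1451530_at, 1424932_at and 1432647_at came without knockout replicate 2. Below the filter, Egfr 1454313_at ranged from -1.318 to 0.663 and 1457563_at from -0.788 to 1.039, and 1457563_at stood at -0.088 after quantile normalization and -0.017 with log2(signal + 16).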
